A study of Mus musculus with 8 samples.

Results

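Hmgcs1, Idi1, Fdft1, Sqle, Lss, Cyp51, Srebf2 and Insig1 are the 8 genes described here. They were chosen by name, for their place in cholesterol synthesis and its control, and make up 8 of the 24054 gene rows of an RNA-seq table of mouse soleus muscle (SOL). The first 6 encode enzymes of the route that builds cholesterol from acetyl-CoA. Srebf2 encodes SREBP-2, the membrane-bound transcription factor that switches this route on, and Insig1 encodes a protein of the endoplasmic reticulum that holds SREBP-2 back when sterol is plentiful. None of the 8 encodes an uptake receptor, and the genes of lipoprotein uptake are given separately as other genes of the pathway.

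Cells obtain cholesterol by making it or by taking up lipoproteins. When sterol in the endoplasmic reticulum is low, the escort protein SCAP carries SREBP-2 to the Golgi, where proteases release its active end, which then turns on the synthesis enzymes, genes of lipoprotein uptake and INSIG1 itself. The enzymes therefore often change together, and skeletal muscle, where most cholesterol sits in plasma and internal membranes, is known to make less of it than liver does.

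The samples were SOL of 4 MI4KO mice (Irf4 flox/flox with Myl1-Cre) and 4 flox mice (Irf4 flox/flox without Cre), all male C57BL/6 by their labels, with 1 library per mouse. All 8 mice thus carried floxed alleles of Irf4, which encodes interferon regulatory factor 4. The Cre was inserted at Myl1 and is active selectively in skeletal muscle, so other cells of the muscle keep Irf4, and an effect of the Cre allele itself cannot be told apart from that of the deletion. A high fat diet is recorded in the labels of all 8, whereas neither diet nor age of the sequenced animals is stated in the paper. Mice are numbered 1 to 4 within each group, and values of separate mice are given in that order.

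Values are CPM, the reads on a gene scaled to a common library size, which the authors normalized with the TMM method, a scaling that rests on the bulk of genes. Between 13417512 and 16384565 reads on genes stood behind each mouse, and 3 reads corresponded to a value of 0.181 to 0.225. The deleted gene Irf4 was at 0.686, 1.46, 1.58 and 1.68 in the flox mice and at 0.725, 0.840, 0.266 and 1.03 in the MI4KO mice, with 4 to 23 reads per mouse. Flox mouse 1 lay within the MI4KO range for Irf4, and a two-sided exact permutation test over all mice gave p = 0.114. In limma Irf4 differed by -0.45 on the log2 scale, with a standard error of 0.20, an unadjusted p of 0.0402 and an adjusted p of 1.0. That unadjusted p became 0.0589 to 0.1197 without flox mouse 2, 3 or 4 or MI4KO mouse 1 or 3, and it was 0.0562 in edgeR and 0.0583 in DESeq2. The 10 skeletal muscle markers summed to 86785 to 106872, and Myh7, the slow myosin heavy chain among them, was at 11079 to 14577 in every mouse. Flox mouse 1 carried liver transcripts, with 20 liver markers that summed to 234 against 9.79 to 18.5 in the other 7 mice. All 20 were highest in that mouse, and Ttr, Fgb, Fgg, Cyp3a11, Cps1 and Tat were at 0 in the other 7. MI4KO mouse 3 was high in glucocorticoid-responsive genes, which summed to 4618 against 2537 to 2915 in the others. Of that sum, Pdk4 alone was at 2470, against 1562 to 1860 in the others. All 14 of these genes were highest in MI4KO mouse 3, where 30.9% of the 11865 genes tested were highest. In such bulk tissue, fewer cells of a type and less RNA per cell cannot be told apart.

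The stretches of 250 bases before the RefSeq start (GRCm38.p6) are shown for the regulator pair Srebf2 and Insig1, for Hmgcs1, which holds a match to the sterol regulatory element, and for Lss, whose values separated the groups. All 4 genes lie on the plus strand, and the stretches are chr15:82147019-82147268, chr5:28071162-28071411, chr13:119690101-119690350 and chr10:76531355-76531604. Capitals mark the sterol regulatory element TCACNCCAC, the NF-Y box CCAAT and the E-box CACGTG, on either strand, so that ATTGG is an NF-Y box read on the other strand.
Srebf2: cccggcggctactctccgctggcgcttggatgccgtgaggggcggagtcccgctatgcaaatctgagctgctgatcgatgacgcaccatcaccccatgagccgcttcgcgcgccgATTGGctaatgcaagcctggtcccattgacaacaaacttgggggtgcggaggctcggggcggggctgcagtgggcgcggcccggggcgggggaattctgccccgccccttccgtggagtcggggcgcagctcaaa
Insig1: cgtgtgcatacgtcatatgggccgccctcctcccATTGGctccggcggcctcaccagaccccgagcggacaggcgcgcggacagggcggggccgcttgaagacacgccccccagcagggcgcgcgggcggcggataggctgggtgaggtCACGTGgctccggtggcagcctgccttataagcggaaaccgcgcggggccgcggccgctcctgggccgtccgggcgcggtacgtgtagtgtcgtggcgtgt
Hmgcs1: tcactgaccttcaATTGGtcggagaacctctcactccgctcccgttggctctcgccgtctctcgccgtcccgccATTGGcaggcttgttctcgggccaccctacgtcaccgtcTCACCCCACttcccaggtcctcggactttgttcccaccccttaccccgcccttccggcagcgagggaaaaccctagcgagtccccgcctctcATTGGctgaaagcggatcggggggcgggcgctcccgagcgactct
Lss: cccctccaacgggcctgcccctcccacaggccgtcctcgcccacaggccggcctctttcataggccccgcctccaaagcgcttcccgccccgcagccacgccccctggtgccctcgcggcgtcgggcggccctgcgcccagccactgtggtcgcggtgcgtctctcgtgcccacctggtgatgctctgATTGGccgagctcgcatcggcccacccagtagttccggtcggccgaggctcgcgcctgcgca
Promoter sequences of 6 members were at hand (these 4, Idi1 and Cyp51), and each motif was searched on both strands of the 250 bases before and the 50 bases after the start. TCACNCCAC was found in 1 of the 6, Hmgcs1, where it begins 137 bases before the start, and in 1.24% of 32851 RefSeq promoters of the same length. CCAAT was found in 6 of the 6 and in 37.4% of all promoters. Hmgcs1 held 4 such boxes, 1 of them after the start, Idi1 held 2, and the other 4 members held 1 each. GGGCGG, the Sp1 box, was likewise found in 6 of the 6 and in 35.7% of all. CACGTG was found in 1 of the 6, Insig1, 101 bases before the start, and in 7.15% of all. The core of the interferon-stimulated response element, GAAA and GAAA with any 2 bases between them, which interferon regulatory factors bind, was found in 0 of the 6 and in 3.44% of all promoters. These are matches of letters in a short window and say nothing of binding. No matches of different motifs overlapped in the 6 promoters, and CACGTG reads the same on both strands.

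All MI4KO mice had less Lss than any flox mouse, while the other 7 members had overlapping groups and log2 fold changes between -0.12 and 0.03. None of them had a Benjamini-Hochberg adjusted p under 0.05 in limma on log2(value + 1), nor did any of the 11865 genes tested (0%), and edgeR and DESeq2 also gave 0 members and 0 genes. The genes tested were a set limited to genes that reached a value of 1 in 4 or more mice, as all 8 members did. At an unadjusted p under 0.05, 1 member was past the limit, Lss, which was lower in MI4KO mice, where 3.36% of all genes tested passed in either direction and 2.95% passed as lower. The median log2 fold change (MI4KO minus flox) of the 8 members was -0.04, beside -0.01 over all genes tested, with 3 members above 0 and 5 below, where 56.2% of all genes were below. For 7 of the 8 the 95% interval lay within a 1.5-fold change either way, as it did for 90.7% of all genes tested. The added 1 shrinks the fold changes of low genes such as Lss and Sqle.

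**Figure D1:**
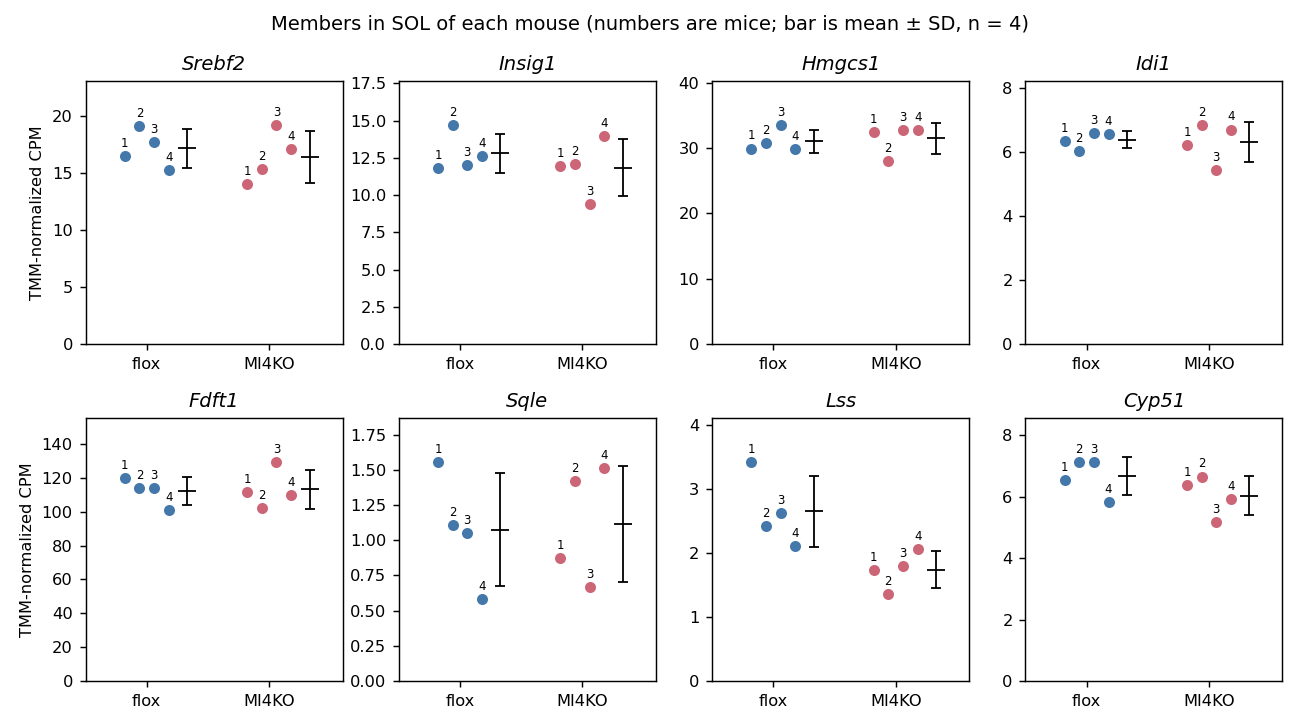
Values of the 8 members (TMM-normalized CPM, linear axes from 0) in SOL of each mouse, as 1 numbered point per mouse, with the mean ± SD (n = 4) beside each group. Blue points are flox mice and red points are MI4KO mice. The groups overlap for 7 of the 8 genes, and for Lss the MI4KO mice sit at 1.36 to 2.05, below the flox mice at 2.11 to 3.43.

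Srebf2 and Insig1, the switch and its brake, had overlapping values in both groups. Srebf2, which encodes SREBP-2 (chromosome 15, 82147181 to 82205379 on the plus strand of GRCm38 in GENCODE M21), was at 16.5, 19.1, 17.7 and 15.2 in the flox mice and at 14.0, 15.3, 19.2 and 17.1 in the MI4KO mice. The groups overlapped, and the lowest and the highest values of Srebf2 were both in MI4KO mice, 1 and 3. Srebf2 averaged 17.2 ± 1.67 (SD, n = 4) in flox and 16.4 ± 2.26 (SD, n = 4) in MI4KO mice, and the log2 fold change was -0.06 (standard error 0.11). Its sign turned without MI4KO mouse 1, to 0.004.

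Insig1 (chromosome 5, 28071363 to 28078662, plus strand) was at 11.8, 14.7, 12.0 and 12.6 in the flox mice and at 12.0, 12.1, 9.37 and 14.0 in the MI4KO mice. MI4KO mouse 3 was the lowest of all and flox mouse 2 the highest, and the remaining values of both groups interleaved. On the log2 scale Insig1 differed by -0.11 (standard error 0.12, exact two-sided permutation test over 4 and 4 mice, p = 0.429), and without MI4KO mouse 3 it was -0.01. Insig1 is itself a well-known SREBP-2 target, and its 95% interval ran from -0.37 to 0.15 on the log2 scale.

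Of the mevalonate part of the route, which makes the 5-carbon unit, Hmgcs1 and Idi1 are members. Hmgcs1 encodes the cytosolic HMG-CoA synthase, which joins acetyl-CoA and acetoacetyl-CoA (chromosome 13, 119690379 to 119708260, plus strand). Its values were 29.9, 30.8, 33.5 and 29.8 in the flox mice and 32.4, 28.0, 32.8 and 32.7 in the MI4KO mice. Apart from MI4KO mouse 2, the lowest of all 8, the MI4KO values of Hmgcs1 lay together and inside the flox range. The means of Hmgcs1 were 31.0 ± 1.74 (SD, n = 4) and 31.5 ± 2.32 (SD, n = 4), with a log2 fold change of 0.02 (standard error 0.08) whose sign turned without MI4KO mouse 3 (-0.001). Hmgcs1 varied least of the members over the 8 mice, with a coefficient of variation of 6.13%.

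Idi1 encodes isopentenyl-diphosphate isomerase, which makes dimethylallyl diphosphate (chromosome 13, 8885501 to 8892451, plus strand). It was at 6.36, 6.04, 6.60 and 6.56 in the flox mice and at 6.24, 6.85, 5.45 and 6.71 in the MI4KO mice. The MI4KO mice held both the highest and the lowest value of Idi1, so the flox range lay inside theirs. Its log2 fold change was -0.02 (standard error 0.10), and it turned to 0.04 without MI4KO mouse 3 and to 0.02 with scaling by library size, to 0.004 in edgeR and to 0.006 in DESeq2. With 82 to 111 reads per mouse, the spread of Idi1 over all mice (7.06%) was below what counting alone would give (10.3%).

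The branch to sterols begins with Fdft1 and Sqle. Fdft1 encodes squalene synthase, which joins 2 farnesyl diphosphates and commits them to sterols (chromosome 14, 63145150 to 63179578, minus strand). Fdft1 was at 119.8, 114.2, 114.3 and 100.9 in the flox mice and at 111.7, 102.3, 129.7 and 109.9 in the MI4KO mice. MI4KO mouse 3 was the highest and flox mouse 4 the lowest, and the groups overlapped. With 1385 to 1951 reads per mouse, Fdft1 was the member measured with the smallest counting error, and its log2 fold change of 0.01 (standard error 0.09, 95% interval -0.17 to 0.20) turned without flox mouse 4 (-0.04) or MI4KO mouse 3 (-0.05). Exons of Fdft1 share 774 bases with Ctsb on the opposite strand, a gene at 350.5 to 430.9 in these mice. Ctsb was also highest in MI4KO mouse 3, as 30.9% of all genes tested were. The libraries were stranded, but whether the counting used strand is not given in the sources used here, so reads on the shared bases cannot be assigned here.

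Sqle encodes squalene epoxidase, an oxygen-dependent and rate-limiting step (chromosome 15, 59315077 to 59331192, plus strand). It was near the detection filter, at 1.56, 1.11, 1.05 and 0.583 in the flox mice and at 0.870, 1.42, 0.665 and 1.51 in the MI4KO mice. Neither group was consistently higher, and the lowest and the highest value of Sqle were both in flox mice. Only 8 to 25 reads per mouse stood behind it, and the spread over the 8 mice was 34.4%, where counting alone would give 24.6%. The log2 fold change of Sqle was 0.03 (standard error 0.19, 95% interval -0.39 to 0.44), its sign depended on single mice (-0.10 to 0.14 with 1 mouse left out), and a small difference in Sqle would not be detectable at this depth.

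Lss encodes lanosterol synthase, which closes squalene epoxide into the first sterol (chromosome 10, 76531588 to 76557138, plus strand). Lss was at 3.43, 2.43, 2.63 and 2.11 in the flox mice and at 1.74, 1.36, 1.79 and 2.05 in the MI4KO mice. Every MI4KO mouse was below every flox mouse, though MI4KO mouse 4 and flox mouse 4 lay close together. Lss was the 1 member of the 8 whose groups did not overlap, where 2.07% of all genes tested had groups that did not and 1.70% were lower in this way.

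Lss averaged 2.65 ± 0.561 (SD, n = 4) in flox and 1.74 ± 0.288 (SD, n = 4) in MI4KO mice, a ratio of 0.656. The log2 fold change of Lss was -0.41 (standard error 0.15, 95% interval -0.73 to -0.09), with an unadjusted p of 0.0166 and an adjusted p of 1.0 by limma. The exact two-sided permutation test gave Lss p = 0.0286, the smallest that 4 mice against 4 allow. Between 21 and 55 reads per mouse stood behind these values.

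The level of Lss was highest in flox mouse 1, the mouse with liver transcripts. That mouse was the highest for 2 of the 8 members (Lss and Sqle) and the lowest for 0. Over all genes tested it was highest for 8.75% and lowest for 7.20%. Without flox mouse 1 the log2 fold change of Lss was -0.31, with an unadjusted p of 0.0623 by limma. Without MI4KO mouse 2 these values were -0.34 and 0.0535. In edgeR and DESeq2 on the recovered reads the log2 fold change of Lss was -0.60, past a 1.5-fold change, with unadjusted p of 0.0168 and 0.0337. The part of liver RNA in the difference was not tested beyond leaving that mouse out. Lss shares 381 exon bases with an antisense gene, 4930483K19Rik, which held 0 to 3 reads per mouse.

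Cyp51 encodes lanosterol 14-alpha-demethylase, the next enzyme after Lss (chromosome 5, 4081145 to 4104746, minus strand). It was at 6.55, 7.14, 7.13 and 5.83 in the flox mice and at 6.38, 6.66, 5.19 and 5.92 in the MI4KO mice. Flox mice 2 and 3 were above all MI4KO mice, flox mouse 4 was below 3 of them, and MI4KO mouse 3 was the lowest. Its log2 fold change was -0.12 (standard error 0.11), and an exact two-sided permutation test over the 4 and 4 mice gave p = 0.257. This log2 fold change was -0.06 without MI4KO mouse 3 and -0.18 without flox mouse 4. The groups of Cyp51 thus overlapped, unlike those of Lss, its neighbour in the route. Exons of Cyp51 share 166 bases with Akap9 on the opposite strand, which was at 67.2 to 90.2.

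Beside the 6 enzymes among the members, 14 further enzymes of the route were examined, and the 20 together had a median log2 fold change of -0.06, with 14 below 0 and 6 above, where 56.2% of all genes tested were below. Of these 20, only Lss and Mvd had an unadjusted p under 0.05, both lower in MI4KO mice, where 2.95% of all genes tested were. Mvd, mevalonate diphosphate decarboxylase, stands just before Idi1 in the route. It was at 14.0, 15.7, 20.7 and 20.4 in the flox mice and at 14.1, 14.4, 13.6 and 13.7 in the MI4KO mice. Flox mice 3 and 4 were high, and flox mouse 1 lay within the MI4KO range. The log2 fold change of Mvd was -0.31 (standard error 0.12, limma unadjusted p = 0.0249, adjusted p = 1.0), which became -0.23 (unadjusted p = 0.0901 by limma) without flox mouse 3 and -0.24 (unadjusted p = 0.0862 by limma) without flox mouse 4.

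**Figure D2:**
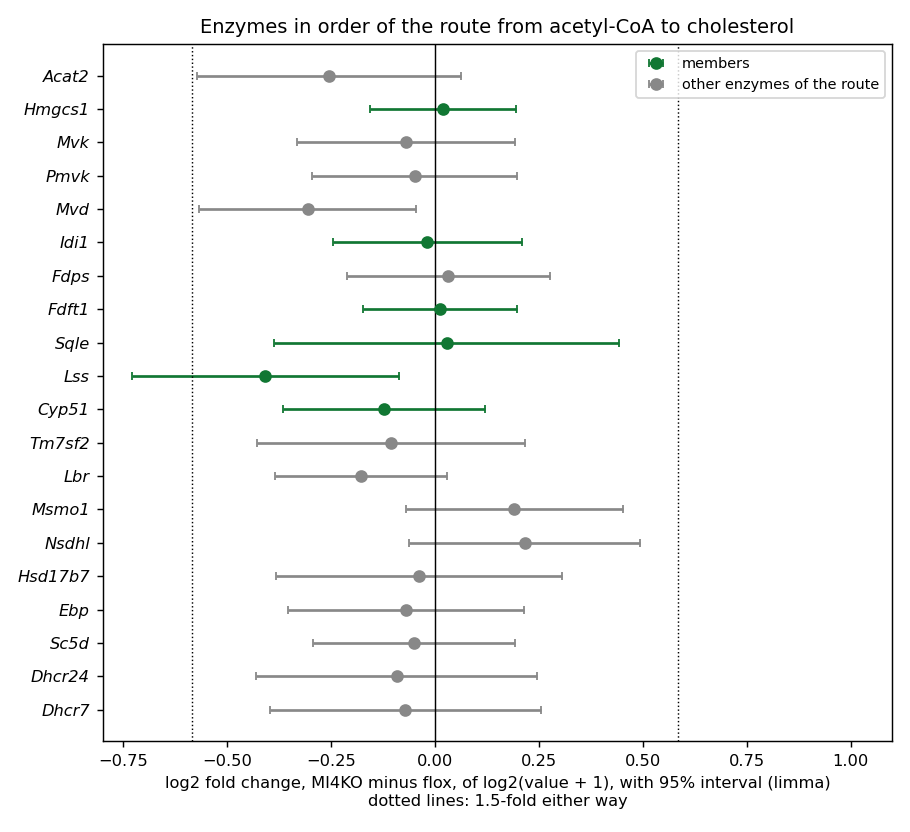
Log2 fold change (MI4KO minus flox, of log2(value + 1)) with its 95% interval from limma for 20 enzymes, listed from the top in the order of the route to cholesterol. Green points are the 6 enzymes among the members, grey points the 14 others, and dotted lines mark a 1.5-fold change of value + 1 either way. The intervals of Lss and Mvd lie below 0, and the interval of Lss is the one that crosses a dotted line.

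Fdps, the farnesyl diphosphate synthase that feeds Fdft1, was at 25.9, 23.4, 30.8 and 27.2 in the flox mice and at 32.1, 29.4, 23.5 and 25.0 in the MI4KO mice. The groups of Fdps overlapped over most of their ranges, and its log2 fold change of 0.03 (standard error 0.11) turned without flox mouse 2 (-0.03), MI4KO mouse 1 (-0.04) or MI4KO mouse 2 (-0.003). The steps after Cyp51, the list of 9 later sterol enzymes, held 0 genes past an unadjusted p of 0.05, and their changes on the log2 scale lay between -0.18 for Lbr, which encodes a nuclear envelope protein with sterol reductase activity, and 0.22 for Nsdhl, a sterol dehydrogenase. The 13 genes of the isoprenoid branches, which use the same precursors for dolichol and protein prenylation, also held 0 genes past that limit, from -0.07 for Pggt1b to 0.16 for Nus1. Nus1, a subunit of the enzyme that makes dolichol, was at 34.8 to 40.4 in the flox mice and at 41.6 to 44.9 in the MI4KO mice, so these groups did not overlap, where 0.371% of all genes tested were higher in this way.

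Levels of the members were compared per kb of the longest coding transcript, as CPM per kb averaged over the 8 mice. Fdft1 was highest at 30.5, followed by Hmgcs1 at 9.02, Insig1 at 4.57, Srebf2 at 3.31, Idi1 at 2.098, Cyp51 at 1.62, Lss at 0.470 and Sqle at 0.397. The ranges over mice overlapped between Insig1 and Srebf2, between Idi1 and Cyp51 and between Lss and Sqle, and the other neighbours in this order were apart in every mouse. Lss was above Sqle in 6 of the 8 mice. The order was the same per kb of all annotated exon bases. Consecutive enzymes of the route thus differed widely in transcript level per kb. By the longest coding transcript, Fdft1 exceeded Sqle, the next step, by 53.6 to 145.5 times in single mice, with the bases that Fdft1 shares with Ctsb included. Only 8 to 25 reads per mouse stood behind Sqle in these ratios. Per kb of all annotated exon bases the means of Fdft1 and Sqle were 26.7 and 0.198, further apart than by the longest coding transcript. Among the 20 enzymes Fdft1 was the highest and Sqle and Lss were the lowest pair by either length.

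**Figure D3:**
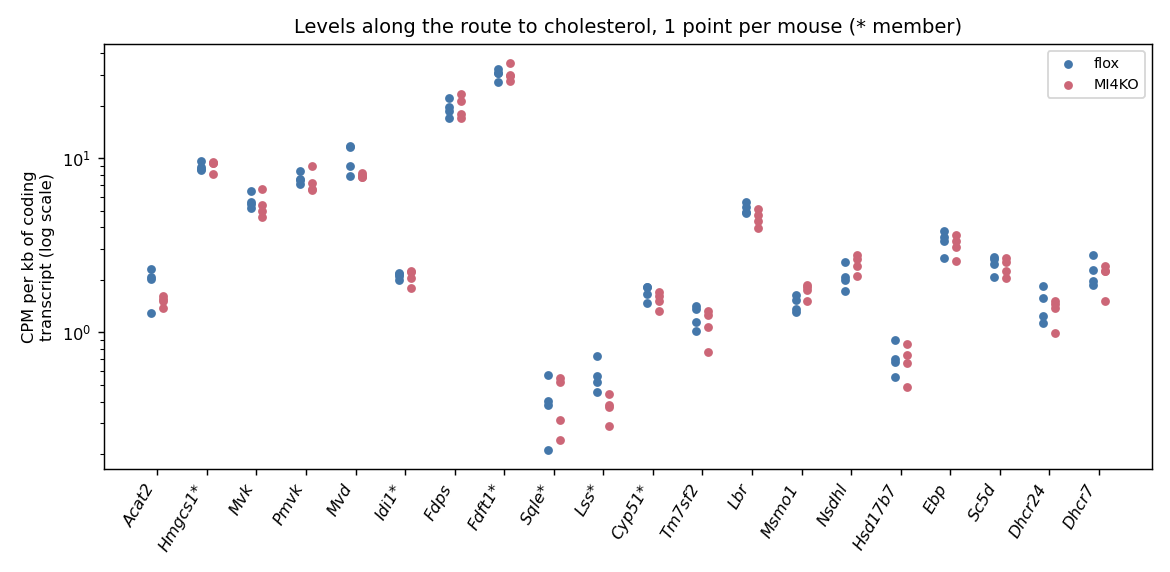
Level of each of 20 enzymes in CPM per kb of its longest coding transcript (log axis), in the order of the route to cholesterol, with 1 point per mouse. Blue points are flox mice, red points are MI4KO mice and an asterisk marks a member. Fdft1 is the highest, at about 30.5 on average, and Sqle and Lss are the lowest, at 0.397 and 0.470.

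Pairs of members varied together in some cases and against each other in others. Over the 28 pairs of members, Pearson's r of log2(value + 1) across the 8 mice ran from -0.81 for Idi1 and Fdft1 (Spearman's rho -0.62) to 0.64 for Srebf2 and Fdft1 (rho 0.67), with a median of 0.18 and 16 pairs above 0. These correlations describe 8 libraries that share depth and scaling, and low members carry counting error. MI4KO mouse 3 was the lowest mouse for 3 of the 8 members (Insig1, Idi1 and Cyp51), where it was lowest for 13.3% of all genes tested, and the highest for 2 (Srebf2 and Fdft1), where it was highest for 30.9% of all.

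**Figure D4:**
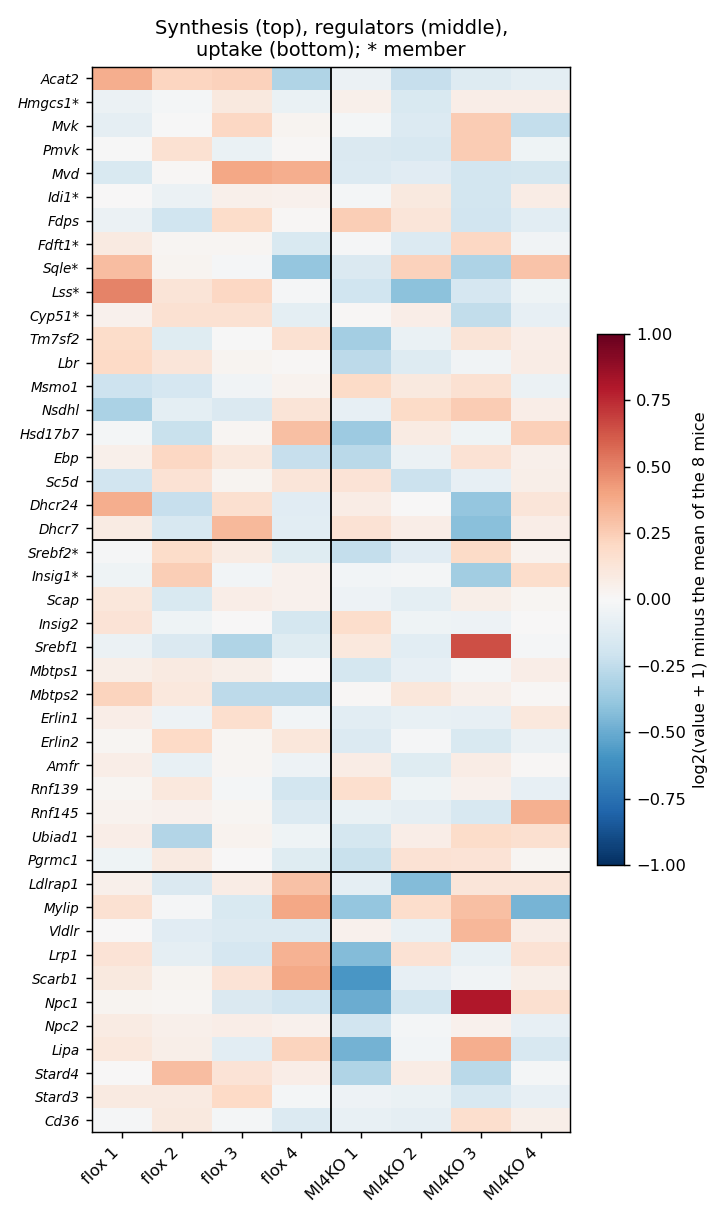
Deviation of log2(value + 1) from the mean of the 8 mice, for enzymes of the route (top), regulators (middle) and uptake genes (bottom), with a column per mouse and an asterisk at each member. Red is above and blue is below the mean, on a scale from -1 to 1. Members are pale in most mice, Lss is darker in flox mouse 1, and Npc1 and Srebf1 are darkest in MI4KO mouse 3.

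The 12 other genes of sterol sensing included 1 with an unadjusted p under 0.05, Srebf1, which was higher, as 0.413% of all genes tested were. Srebf1 encodes SREBP-1, the relative of SREBP-2 that mainly drives fatty acid synthesis. It was at 29.9, 28.2, 25.2 and 28.7 in the flox mice and at 33.7, 29.0, 49.6 and 30.9 in the MI4KO mice, where mouse 3 was far above the rest. The log2 fold change of Srebf1 was 0.31 (standard error 0.14, limma unadjusted p = 0.0434, adjusted p = 1.0), and it was 0.15 (unadjusted p = 0.107 by limma) without MI4KO mouse 3, the mouse with high glucocorticoid-responsive genes, whose part in the difference was not tested. Without flox mouse 2, 3 or 4 or MI4KO mouse 1 the log2 fold change of Srebf1 was 0.27 to 0.33, with unadjusted p of 0.0549 to 0.113 by limma. Srebf2 was at -0.06 on the same scale, and neither Scap, the escort of both factors (-0.04, standard error 0.08), nor Insig2, the paralog of Insig1 (0.04, standard error 0.08), was past the limit. The sign of Scap turned with scaling by library size (0.007) and that of Insig2 without flox mouse 4 or MI4KO mouse 1 (-0.01 in each case). Erlin2, which takes part in protein breakdown at the endoplasmic reticulum, was at 14.4 to 16.4 in the flox mice and at 12.6 to 14.1 in the MI4KO mice. Its groups did not overlap, where 1.70% of all genes tested were lower in this way. The log2 fold change of Erlin2 was -0.18 (unadjusted p = 0.0617 by limma).

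Of 11 uptake genes examined, 1 was higher and 1 lower at an unadjusted p under 0.05, where 0.413% of all genes tested were higher and 2.95% lower. The median log2 fold change of the 11 was -0.14, beside -0.01 over all genes tested. Of the 11, 3 were above 0 and 8 below, where 56.2% of all genes tested were below. Vldlr, the VLDL receptor of muscle, was at 213.0, 196.3, 192.9 and 192.5 in the flox mice and at 219.1, 201.5, 267.9 and 223.6 in the MI4KO mice. Its log2 fold change was 0.19 (standard error 0.09, unadjusted p = 0.0469 by limma), but 0.11 (unadjusted p = 0.126 by limma) without MI4KO mouse 3, and 0.18 to 0.21 without flox mouse 2, 3 or 4 or MI4KO mouse 1 or 4, with unadjusted p of 0.0529 to 0.105. Scarb1, the HDL receptor, was at 17.3, 16.4, 17.8 and 21.2 in the flox mice and at 10.4, 15.1, 15.7 and 16.8 in the MI4KO mice, with mouse 1 the lowest. Scarb1 differed by -0.32 on the log2 scale (standard error 0.14, unadjusted p = 0.0366 by limma), but -0.18 (unadjusted p = 0.115 by limma) without MI4KO mouse 1. It was -0.33 (limma unadjusted p = 0.0595) without flox mouse 3 and -0.25 (limma unadjusted p = 0.115) without flox mouse 4.

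**Figure D5:**
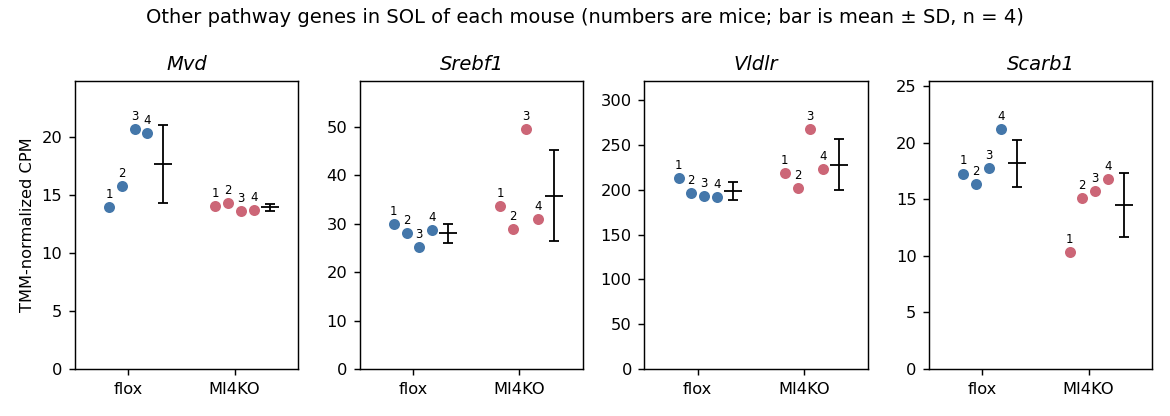
Values of Mvd, Srebf1, Vldlr and Scarb1 (TMM-normalized CPM, linear axes from 0) in SOL of each mouse, as 1 numbered point per mouse, with the mean ± SD (n = 4) beside each group. MI4KO mouse 3 is the highest mouse for Srebf1 and Vldlr, at 49.6 and 267.9, and MI4KO mouse 1 is the lowest for Scarb1, at 10.4.

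Among 9 tested genes of efflux and storage, Apoe, which encodes a lipoprotein component made by liver and macrophages, was the 1 gene with an unadjusted p under 0.05, and it was lower, as 2.95% of all genes tested were. Apoe was at 79.5, 47.6, 46.9 and 45.5 in the flox mice and at 26.3, 42.7, 38.7 and 38.9 in the MI4KO mice, with no overlap, where 1.70% of all genes tested were lower in this way. Its log2 fold change was -0.55 (standard error 0.18, limma unadjusted p = 0.00940, adjusted p = 1.0), and -0.36 with an unadjusted p of 0.0251 without flox mouse 1, in which the liver markers were high. For Soat1, the enzyme that stores cholesterol as ester, the log2 fold change was 0.20 (standard error 0.18). The list of 12 genes of fatty acid synthesis held 0 genes past the limit, from -0.45 (standard error 0.35) for Scd1, a desaturase at 59.2 to 267.5 in the MI4KO mice and 165.1 to 179.0 in the flox mice, to 0.26 (standard error 0.18) for Elovl6. Scd1 ranged from -0.82 (unadjusted p = 0.0123 by limma) without MI4KO mouse 4 to -0.10 without MI4KO mouse 1. Elovl6 was at 0.39 (unadjusted p = 0.0432 by limma) without MI4KO mouse 1 and at 0.17 without flox mouse 4, and the list held 1 gene past the limit without MI4KO mouse 1, 2 or 4.

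Over all 7 lists of other pathway genes, 72 of 78 genes were tested, and 5 had an unadjusted p under 0.05, 2 of them higher and 3 lower, where 3.36% of all genes tested passed, 0.413% as higher and 2.95% as lower. The median log2 fold change of the 72 was -0.02, beside -0.01 over all genes tested. None had an adjusted p under 0.05, and none was past 1.5-fold with an unadjusted p under 0.05, where 0.219% of all genes tested were. Groups did not overlap for 5 of the 72, with 4 lower (Apoe, Erlin2, Npc2 and Stard3) and 1 higher (Nus1), where 2.07% of all genes tested had such groups.

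Genes that followed the members from mouse to mouse were ranked by Pearson's r with the mean of the 8 members, each centred and scaled to unit SD, over the 8 mice. The highest were Gm2a and Ptprd at 0.91 each and Id2 at 0.90, followed by Efcab14, Ago4, Hps5, Tgfb3, Rhno1, Cmtm7 and Efna5, the last at 0.88. With 11865 genes and 8 libraries that share depth and scaling, values of this size are given as a description of these libraries.

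Markers of other cells were examined beside the members, over whole lists. The 12 Schwann cell markers, from cells that make much cholesterol for myelin, had sums of 106.2 to 142.0 over the flox mice and of 97.4 to 118.2 over the MI4KO mice, and of 9 tested 0 were past an unadjusted p of 0.05. The 10 adipocyte markers summed to 659 to 779 and 564 to 1055. The highest of these sums, in MI4KO mouse 3, came with Plin4 at 812 there, against 353 to 493 in the flox mice, while Adipoq was at 5.99 to 7.56 in the flox mice and at 2.18, 6.59, 2.99 and 9.97 in the MI4KO mice. The sums, again flox before MI4KO, were for the 10 endothelial markers 453 to 544 and 355 to 492, for the 10 fibroblast markers 378 to 506 and 300.5 to 488, and for the 9 macrophage markers with a row 46.4 to 58.2 and 48.2 to 67.5. At an unadjusted p under 0.05, 1 of 8 adipocyte, 2 of 10 endothelial and 1 of 9 fibroblast markers tested were lower in MI4KO mice, where 2.95% of all genes tested were, and 0 of 9 macrophage markers passed. The log2 fold changes of all 10 endothelial markers were below 0, where 56.2% of all genes tested were. Of the other markers tested, 8 of 9 fibroblast, 7 of 9 Schwann cell, 6 of 8 adipocyte and 1 of 9 macrophage markers were below 0. The part of these markers in the values of the members was not tested.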

How the data were processed

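SOL RNA of 4 MI4KO and 4 flox mice was measured as 1 poly(A) library per mouse, and the group was taken from each mouse's title. The authors deposited 1 signal per gene and mouse, a CPM value after TMM normalization. Also deposited by the authors, and not used here, were a signed fold-change score and a p-value and FDR per gene. The submitters' processing notes name bcl2fastq 2.17, Bowtie2 2.1.0, RSEM 1.2.15 and the mm10 build, and whether counting used strand is not given in the sources used here. Non-zero values were whole multiples of 1 read in 100% of cases (tolerance 0.01 reads), so reads were recovered. Totals were 13417512 to 16384565 reads per mouse. The spread that counting alone would give was taken from the reads and covers counting error only. The intervals of log2 fold changes came from limma and, like the p-values, rest on the variation between mice.

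limma 3.58.1 (R 4.3.3) with a mean-variance trend was run on log2(value + 1) for the 11865 genes that reached a value of 1 in 4 or more of the 8 mice, with Benjamini-Hochberg adjustment over all of them and no covariate. Single members were also compared with a two-sided exact permutation test in scipy 1.17.1. The procedure was also run on simulated data, whose changed genes had larger fold changes than the members. That run therefore says nothing of changes of their size. Alternatives were pseudocounts of 0.1 and 5, no filter, a mean value of at least 5, median-of-ratios and library-size scaling, limma with robust estimation or without trend, a covariate for the range of the mouse number, edgeR 4.0.16 (quasi-likelihood) and DESeq2 1.42.0 on the recovered reads, and each mouse left out. The members and lists were chosen with earlier results of these data known. Named beside the 8 members were Irf4 and, of 7 lists, genes with an unadjusted p under 0.05, the extremes of each list, Srebf1, Insig2 and Scap, and the 10 genes most like the mean of the members. Some genes of these pathways are not reported here, and the lists and their counts leave them out. Npc1, Npc2, Stard3, the genes that overlap members and the marker genes were named after their values were seen. Gene positions are from GENCODE M21 (GRCm38) by symbol, and promoter sequences are from RefSeq (GRCm38.p6).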

Additional observations from a re-analysis of the deposited data

Results flagged for a closer look

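In groups of 4 mice, a mouse was singled out where its gap to the nearest other mouse, divided by the whole range, passed Dixon's 95% critical value. Of 48 such groups, 2 passed, where chance gives about 2.4, 1 in 20. Hmgcs1 in MI4KO mouse 2 was at 28.0, below the other MI4KO mice at 32.4 to 32.8. Apoe in flox mouse 1, the mouse with liver transcripts, was at 79.5, above the other flox mice at 45.5 to 47.6.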

How the results depend on the processing

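No paired analysis was possible because the groups share no mouse numbers. The 8 members held 0 genes with an adjusted p under 0.05 under all 19 alternatives, and the median log2 fold change of the members stayed below 0, from -0.10 to -0.001. The count of members with an unadjusted p under 0.05 was 1, and it was 0 with a mean value of at least 5, a filter that Lss does not pass, and 0 to 1 with 1 mouse left out (0 without flox mouse 1 or MI4KO mouse 2). With a 1.5-fold change as well it was 0, and 1 in edgeR and in DESeq2. Lss stayed lower under all 18 alternatives that tested it (-0.60 to -0.18), with unadjusted p of 0.00710 to 0.0623. Over all genes, the count with an unadjusted p under 0.05 and a 1.5-fold change was 26, and it became 71 with a pseudocount of 0.1, 5 with a pseudocount of 5, 13 with a mean value of at least 5, 13 with robust estimation, 65 in edgeR, 51 in DESeq2 and 19 to 58 with 1 mouse left out. Adjusted p under 0.05 was reached by 0 genes, and by 0 to 1 with 1 mouse left out (1 without MI4KO mouse 2), beside 399 at an unadjusted p under 0.05 in limma, 363 in edgeR and 248 in DESeq2. The 5 pathway genes past an unadjusted p of 0.05 became 1 to 6 with 1 mouse left out, with 1 without flox mouse 3 and 3 without flox mouse 2. Signs turned for Sqle (-0.026) and Fdps (-0.0099) with the mouse number covariate, and for Idi1 (0.021 with library size, 0.0037 in edgeR, 0.0059 in DESeq2) and Scap (0.0074 with library size). With 1 mouse left out, log2 fold changes ran from -0.00086 to 0.073 for Hmgcs1, -0.095 to 0.14 for Sqle, -0.14 to 0.0040 for Srebf2, -0.054 to 0.040 for Idi1, -0.055 to 0.059 for Fdft1, -0.044 to 0.10 for Fdps, -0.0093 to 0.095 for Insig2 and -0.17 to 0.064 for Pggt1b. Of the other genes past an unadjusted p of 0.05, Irf4 lost this with both scalings, the covariate, edgeR and DESeq2, Srebf1 lost this with no filter and without trend, Vldlr without trend and with the filter on mean value, and Scarb1 with library size, the covariate and edgeR, while Nus1 gained it with no filter, both scalings, edgeR and DESeq2. The cause of these changes was not tested. Depth limits Sqle (8 to 25 reads) and Lss (21 to 55 reads).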
